A study of Mus musculus with 2 samples.

Results

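Keratin-associated proteins, the cysteine-rich and glycine-tyrosine-rich proteins that fill the space between keratin filaments in the hair shaft, were examined subfamily by subfamily in the dorsal skin of aged mice. All rows of the deposited expression table whose symbol is Krtap followed by a digit were taken, which gave 54 of 4183 rows. By subfamily number 15 of them belong to the high glycine-tyrosine class (numbers 6, 7, 8, 16, 19, 21 and 22 had rows) and 39 to the cysteine-rich class (19 other numbers). Both groups were C57BL/6 mice aged 18 to 20 months. One group was left untreated, and the other was irradiated with red light on 28 consecutive days at 8 J/cm². GEO describes 1 sample per group. The table gives the authors' mean FPKM (read fragments counted per unit of transcript length and of library size) of each group. How many animals or libraries stand behind a mean is not stated, no spread is given, and no difference below could therefore be tested against the variation between animals.

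Keratin-associated proteins are made by cells of the hair cortex and cuticle while the follicle is in its growth phase, late in their differentiation and after the hair keratins have begun to accumulate. The cysteine-rich proteins cross-link the keratin filaments, and one another, through disulfide bonds, which gives hair its hardness. The high glycine-tyrosine proteins are small, carry few charges and pack between the filaments. In humans, subfamilies 5, 10 and 12 and KRTAP24-1 are known mainly from the cuticle, the layer of flat cells that covers the shaft.

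The class given by subfamily number was compared with the composition of the proteins themselves, translated from the GENCODE M21 transcript of each gene, all 54 of which have 1 exon. Of the 15 high glycine-tyrosine members, 13 had at least 45% glycine plus tyrosine. Krtap6-1 was the richest with 69.2%, while Krtap7-1 had 29.9%. Krtap16-1 goes against its class: its 502 residues hold 20.1% cysteine and 3.78% glycine plus tyrosine. It lies in the chromosome 11 cluster (GRCm38.p6) with the cysteine-rich genes, whereas the 14 other members of its class lie on chromosome 16, and its protein is 4.98% identical to that of Krtap16-3, a typical member with 59.3% glycine plus tyrosine. In the cysteine-rich class the cysteine share ranged from 4% to 42.9% with a median of 30.4%. Here 7 of 39 proteins held more glycine plus tyrosine than cysteine, namely Krtap5-2, Krtap5-3, Krtap13-1, Krtap14, Krtap15, Krtap24-1 and Krtap26-1. Krtap15, with 4% cysteine and 24.0% glycine plus tyrosine, is cysteine-rich by its number only. Krtap5-2 and Krtap5-3 hold both kinds of residue, with 34.6% and 35.1% cysteine beside 36.0% and 39.3% glycine plus tyrosine. The proteins of the high glycine-tyrosine class were shorter, with a median of 86 residues against 177.

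**Figure D1:**
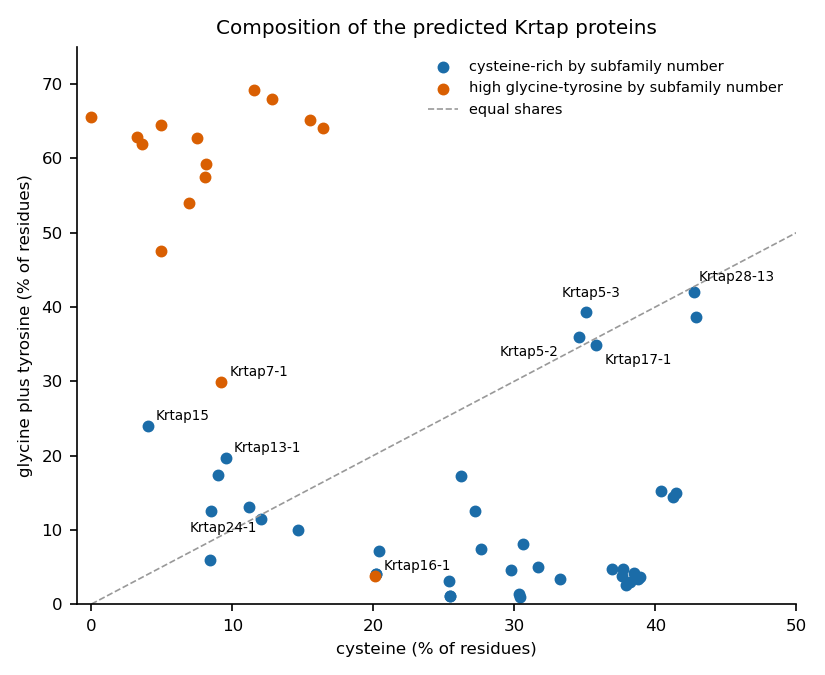
Share of cysteine (x axis, % of residues) and of glycine plus tyrosine (y axis, % of residues) in each of the 54 predicted proteins, coloured by the class that the subfamily number gives. The dashed line marks equal shares. Krtap16-1 lies among the cysteine-rich proteins at 20.1% cysteine, and Krtap15 lies above the line at 4% cysteine.

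All 54 Krtap genes had a higher mean in red light skin than in untreated skin, where 38.7% of all rows in the table did. The ratio of the red light mean to the untreated mean had a median of 390-fold (log2 8.61) over the Krtap genes, against a median log2 ratio of −1.21 over all rows. It reached at least 100-fold, or had an untreated mean of 0, in 53 of the 54, against 5.24% of all rows. The table is a filtered list whose criteria are not stated, so the share among its rows is not a share of all genes. RefSeq names 3 further genes of the family, Krtap13, Krtap20-2 and Krtap6-3, that are not among the rows. Summed over the family, the means went from 132 FPKM in untreated skin to 42006 FPKM after red light. That was 0.104% and 25.15% of the FPKM of all listed rows. FPKM is a relative scale, on which the genes of a library share 1 total; how far the Krtap sum bears on the values of other genes was not tested.

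The order of the genes was much alike in both groups. Across the 53 genes with an untreated mean above 0, Spearman's rho between the untreated and red light means was 0.952, a description over genes that share the same libraries. Of the 54 genes, 26 had an untreated mean under 1 FPKM, and 41 had a red light mean of at least 100 FPKM. The lowest red light mean, that of Krtap5-3 at 2.03 FPKM, was below the highest untreated means, so the 2 groups overlap as sets of genes although no gene was lower after red light. Krtap7-1 and Krtap8-1 had the highest red light means of the whole table.

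**Figure D2:**
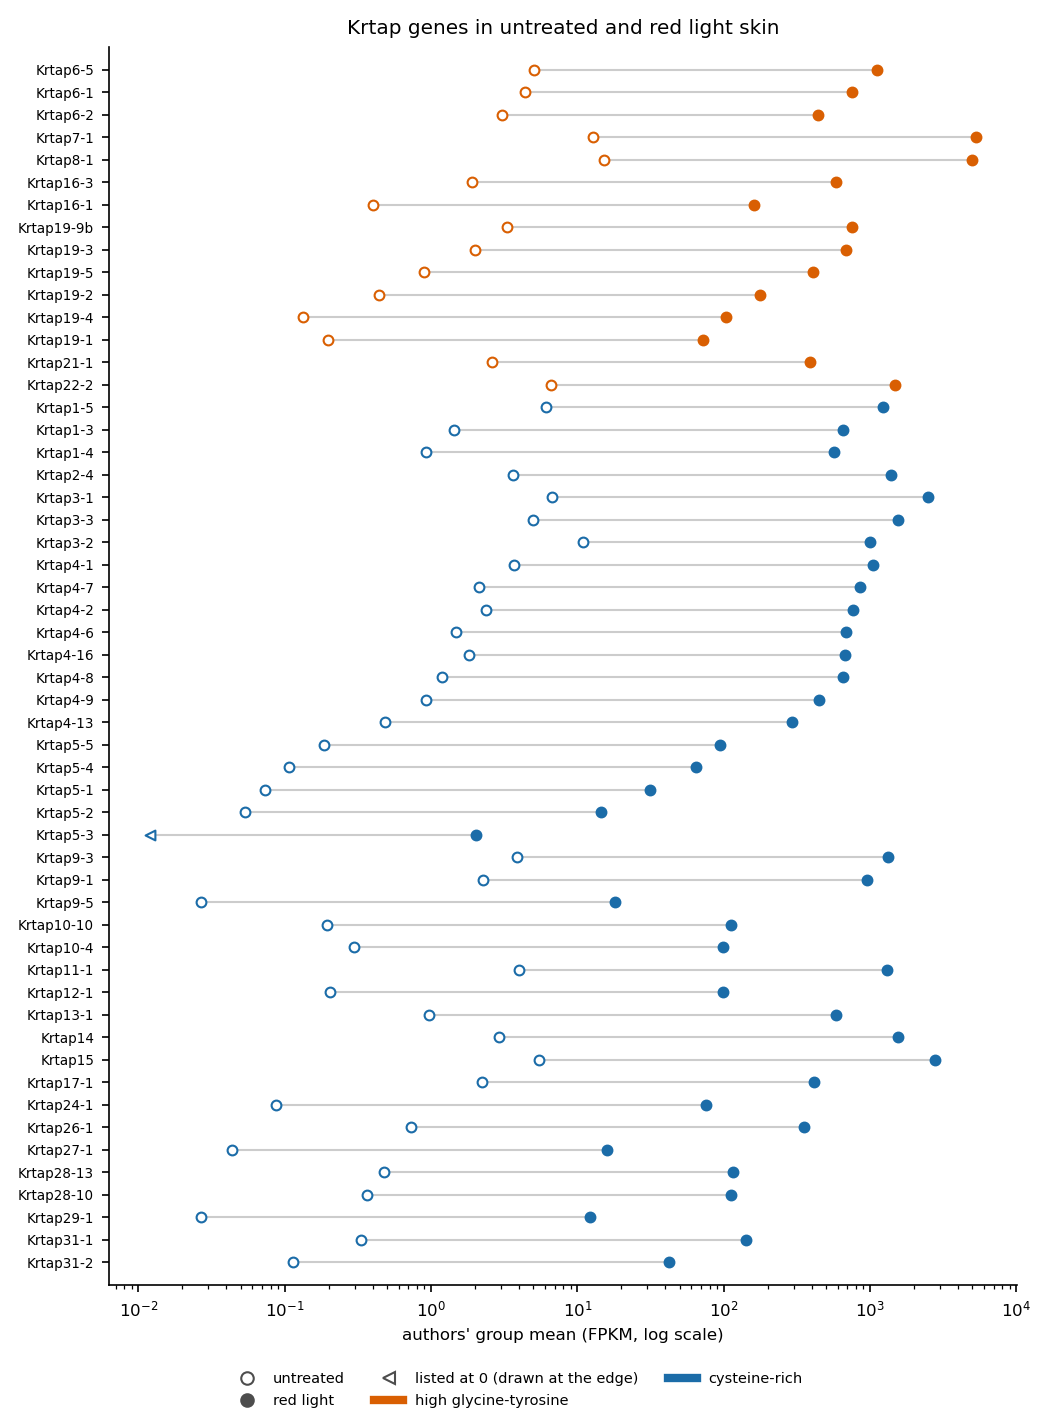
The authors' mean FPKM (x axis, log scale) of each Krtap gene in untreated skin (open) and red light skin (filled), ordered by class and subfamily number. Krtap5-3 is listed at 0 in untreated skin and its open triangle is drawn at the edge. Every filled point lies to the right of its open point, from 2.03 FPKM for Krtap5-3 to 5267 FPKM for Krtap7-1.

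The bases before the transcription start are shown for 5 genes chosen because they carry the contrasts described here. Krtap8-1 is the high glycine-tyrosine gene with the highest red light mean among those with a RefSeq promoter entry, and Krtap15 is the cysteine-rich gene with the highest. Krtap24-1 had the largest ratio that could be formed, and Krtap3-2 and Krtap3-3 encode the same protein. Each line gives the 250 bases before the RefSeq start (GRCm38.p6), 5′ to 3′ on the gene's strand. Capitals mark matches on either strand to TATAAA, the core of a TATA box, to TTTATT or TTTATG, letters found in sites of the hair regulator HOXC13, and to CTTTGA, the core bound by LEF1 and TCF proteins.
Krtap8-1 (chr16:89487953-89488202, minus strand): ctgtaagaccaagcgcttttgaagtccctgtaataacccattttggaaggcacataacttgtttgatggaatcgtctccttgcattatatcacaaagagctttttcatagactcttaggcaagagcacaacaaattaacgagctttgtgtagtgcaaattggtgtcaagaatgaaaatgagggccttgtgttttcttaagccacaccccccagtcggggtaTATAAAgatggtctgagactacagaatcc
Krtap15 (chr16:88828759-88829008, plus strand): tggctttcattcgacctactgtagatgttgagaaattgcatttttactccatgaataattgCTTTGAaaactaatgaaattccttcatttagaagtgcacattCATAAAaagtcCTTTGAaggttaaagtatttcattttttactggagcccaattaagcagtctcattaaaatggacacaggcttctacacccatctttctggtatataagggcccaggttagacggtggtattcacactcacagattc
Krtap24-1 (chr16:88612280-88612529, minus strand): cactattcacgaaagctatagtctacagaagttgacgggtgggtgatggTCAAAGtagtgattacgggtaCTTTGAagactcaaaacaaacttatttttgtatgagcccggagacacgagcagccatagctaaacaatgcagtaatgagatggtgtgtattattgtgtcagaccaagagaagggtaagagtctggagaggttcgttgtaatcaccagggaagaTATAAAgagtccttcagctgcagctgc
Krtap3-2 (chr11:99556854-99557103, minus strand): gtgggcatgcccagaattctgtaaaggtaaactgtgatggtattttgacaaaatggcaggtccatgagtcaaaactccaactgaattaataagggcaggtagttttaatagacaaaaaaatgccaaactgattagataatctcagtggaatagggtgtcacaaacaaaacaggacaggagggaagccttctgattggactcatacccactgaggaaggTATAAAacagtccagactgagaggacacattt
Krtap3-3 (chr11:99550864-99551113, minus strand): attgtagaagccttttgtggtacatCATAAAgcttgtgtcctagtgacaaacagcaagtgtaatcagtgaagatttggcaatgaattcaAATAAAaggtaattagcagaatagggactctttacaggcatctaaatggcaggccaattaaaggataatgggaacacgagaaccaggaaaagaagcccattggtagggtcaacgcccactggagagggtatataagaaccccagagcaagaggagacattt

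Of the 54 genes, 48 had a promoter entry in RefSeq, a window from 250 bases before to 50 bases after the start. TATAAA was present in 39 of the 48 windows (81.2%), against 15.7% of 27025 genes with such a window. On the sense strand at 40 to 20 bases before the start, the usual place of a TATA box, it stood in 29 of 48 (60.4%) and in 2.41% of all genes. By class these were 24 of 34 cysteine-rich and 5 of 14 high glycine-tyrosine genes. In Krtap8-1 the match begins 29 bases before the start, in Krtap24-1 27 and in Krtap3-2 32 bases before it, while the windows of Krtap15 and Krtap3-3 hold no TATAAA. Both do hold the similar letters tatataag in the bases printed above. Variants of TATAAA were not searched in any window, so the counts cover the exact letters only. Of the HOXC13 letters, TTTATT was found in 22.9% of the Krtap windows and in 22.01% of all windows searched. The form that ends in G, which is a separate search, was found in 29.2% of the Krtap windows and in 13.6% of all. For the LEF1 and TCF core the shares were 29.2% and 18.2%. No matches to different motifs overlapped in the Krtap windows. A match is letters in a window and no match means only that these letters are absent from it; neither says anything about binding.

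**Figure D3:**
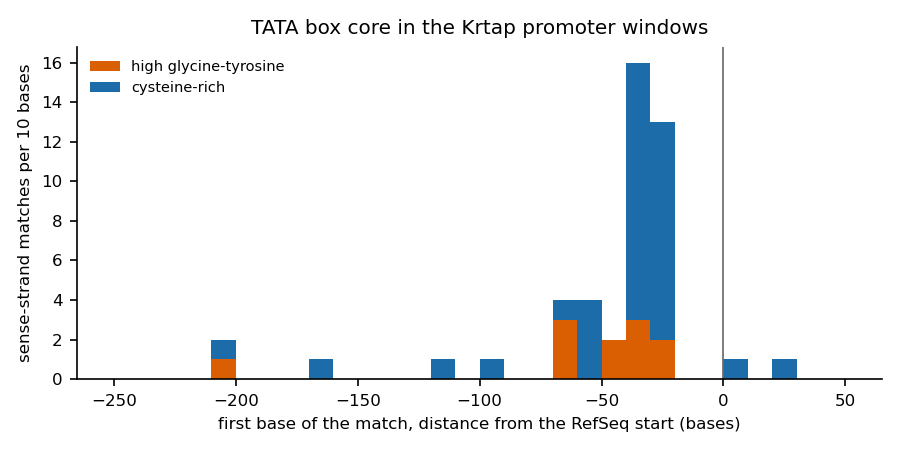
Number of sense-strand TATAAA matches per 10 bases (y axis) by the distance of the first base of the match from the RefSeq start (x axis, bases), over the 48 Krtap genes with a promoter entry, coloured by class. The matches pile up between 40 and 20 bases before the start, where 29 of the 48 genes have one.

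The high glycine-tyrosine class went from a summed 58.8 FPKM in untreated skin to 17397 FPKM after red light, and the cysteine-rich class from 73.7 to 24609 FPKM. High glycine-tyrosine transcripts by subfamily number thus made up 44.4% of the Krtap signal in untreated skin and 41.4% after red light. Classes were also set by protein composition, as high glycine-tyrosine where glycine plus tyrosine exceeded cysteine, which moves 8 genes. Among the moved are Krtap15, Krtap14 and Krtap13-1. Their 24.0%, 17.4% and 19.6% glycine plus tyrosine compare with a median of 62.7% in the class by number. Krtap15 alone held 4.11% of the Krtap signal in untreated and 6.61% in red light skin. By composition both the order of the classes and the direction of the shift turn. The high glycine-tyrosine share, with such genes included, was then 51.8% in untreated skin and 53.8% after red light. The ratio of the class sums turned with it, from 296-fold against 334-fold for the cysteine-rich class by number to 329-fold against 304-fold by composition. All 15 and all 39 genes were higher. The median ratio was 330-fold in the high glycine-tyrosine class and 428-fold in the cysteine-rich class, with ranges of 143-fold to 778-fold and, for the 38 genes with an untreated mean above 0, 92.2-fold to 879-fold. The ranges overlap over most of their length, and whether the class medians differ beyond the variation between animals cannot be tested. Against the family median, 5 high glycine-tyrosine genes lay above and 10 below, and 22 cysteine-rich genes lay above and 17 below. Genes with lower untreated means had larger ratios (Spearman's rho −0.517 across 53 genes, a description in which the untreated mean enters both measures), and the high glycine-tyrosine class had the higher median untreated mean, at 2.60 against 0.927 FPKM. Among genes of at least 1 FPKM in untreated skin, the class medians were 227-fold for 10 high glycine-tyrosine genes and 371-fold for the cysteine-rich genes. Among the 26 genes under 1 FPKM they were 403-fold for 5 high glycine-tyrosine genes and 488-fold for the cysteine-rich genes.

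Within the high glycine-tyrosine class, Krtap7-1 and Krtap8-1 dominated. Krtap7-1 had means of 12.7 FPKM in untreated and 5267 FPKM in red light skin, a ratio of 415-fold. Krtap8-1, a protein of 61 residues, had 15.1 and 4998 FPKM, or 330-fold. Together they held 59.0% of the red light FPKM of the class, although each is the only listed gene of its subfamily. The next highest were Krtap22-2 with 6.62 and 1489 FPKM, Krtap6-5 with 5.05 and 1116 FPKM, and Krtap19-9b, whose 58 residues include no cysteine, with 3.30 and 757 FPKM.

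The lowest ratios of the class lay in subfamilies 6, 21 and 22. Krtap6-2 went from 3.07 to 440 FPKM (143-fold), Krtap21-1 from 2.60 to 390 FPKM (150-fold) and Krtap6-1 from 4.37 to 754 FPKM (173-fold). The 5 genes of these subfamilies, grouped after their values were seen, had ratios of 143-fold to 225-fold. The other 10 genes of the class had 229-fold to 778-fold, with a median of 383-fold. Because the grouping followed the values, the lack of overlap is not a separate result. All 5 genes had untreated means of at least 1 FPKM, where the class median, these genes included, was 227-fold. Their cysteine shares ran from 7.46% in Krtap22-2 to 16.4% in Krtap21-1, and their lengths from 67 residues in Krtap22-2 to 155 in Krtap6-2. Krtap6-1 and Krtap6-5 are 98.7% identical in protein, so reads may be split between them. Their summed means were 9.42 and 1870 FPKM, a ratio of 199-fold.

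Subfamily 19, with 6 genes the largest of the class, held the lowest levels and the largest ratio. Krtap19-4 went from 0.133 to 104 FPKM, or 778-fold, and Krtap19-5 from 0.900 to 407 FPKM, or 452-fold. Krtap19-1 was at 0.197 and 72.5 FPKM, the lowest red light mean of the class, and Krtap19-2 at 0.443 and 176 FPKM. Krtap19-1 and Krtap19-3 are 85.1% identical in protein, yet Krtap19-3 stood at 682 FPKM after red light. The 2 genes numbered 16 were Krtap16-3, at 1.89 and 582 FPKM (307-fold), and the cysteine-bearing Krtap16-1, at 0.403 and 162 FPKM (403-fold).

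Among the cysteine-rich genes the highest levels belonged to members with little or moderate cysteine. Krtap15 had 5.44 FPKM in untreated and 2775 FPKM in red light skin, a ratio of 510-fold. Krtap3-1, with 20.4% cysteine, had 6.74 and 2500 FPKM, and Krtap14, with 8.98% cysteine, had 2.92 and 1558 FPKM. Krtap2-4 had 3.61 and 1383 FPKM. Not all proteins with little cysteine had high levels: Krtap27-1 and Krtap24-1, with 8.42% and 8.47% cysteine, had red light means of 15.9 and 76.2 FPKM. With limits chosen after the compositions were seen, the 5 proteins under 10% cysteine had a median ratio of 533-fold, the 13 proteins of 10% to 30% one of 372-fold and the 21 proteins of at least 30%, the range called ultra-high sulfur, one of 428-fold. Across the 38 cysteine-rich genes with a ratio, the cysteine share and the ratio were close to unrelated (Spearman's rho −0.089, a description). Between the cysteine share and the red light mean of these genes, rho was −0.216. Red light level and protein length ran opposite ways over the same genes (rho −0.658). FPKM is already per kilobase of transcript, but how well this holds for transcripts so short was not tested. Some other relations to the ratio were larger. For the glycine plus tyrosine share rho was −0.407 over all 53 genes, −0.596 over 15 high glycine-tyrosine and −0.192 over the cysteine-rich genes. For protein length it was 0.494, 0.016 and 0.473 in that order, and for the cysteine share 0.088, −0.464 and −0.089. These too are descriptions.

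The ultra-high-sulfur subfamily 4 was the subfamily with the highest summed red light FPKM. Its 8 genes, all encoded on chromosome 11 (GRCm38.p6), went from 14.1 to 5418 FPKM in sum, with single ratios of 286-fold (Krtap4-1) to 606-fold (Krtap4-13). Krtap4-1 had 3.68 and 1052 FPKM and Krtap4-13 had 0.483 and 293 FPKM. Krtap4-1 and Krtap4-2 are 96.4% identical in protein; their means summed to 6.04 and 1822 FPKM. In subfamily 1, Krtap1-5 went from 6.12 to 1231 FPKM (201-fold) and Krtap1-4 from 0.920 to 565 FPKM (615-fold). Subfamily 9 was spread more widely, with Krtap9-3 at 3.85 and 1320 FPKM and Krtap9-5 at 0.0267 and 17.9 FPKM, and its proteins were only 18.99% to 34.4% identical. In protein Krtap9-3 was closer to subfamily 1, with 83.1% identity to Krtap1-5, so the number 9 does not mark 1 group of like proteins here.

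Krtap3-2 and Krtap3-3 had different ratios although their proteins are 100% identical. Krtap3-2 had an untreated mean of 10.8 FPKM, behind only Krtap8-1 and Krtap7-1 in the family, and 999 FPKM after red light. Its 92.2-fold ratio was the lowest of all 54 and the only one under 100-fold. Krtap3-3 had 4.97 and 1551 FPKM, or 312-fold. In untreated skin Krtap3-2 was thus the higher of the pair and in red light skin Krtap3-3. Summed, the pair went from 15.8 to 2551 FPKM, or 161-fold. Their 250 upstream bases, printed above, are 60.0% identical. Krtap8-1 and Krtap15 had 55.2%, but 1 such pair gives no baseline. Whether the upstream bases of Krtap3-2 and Krtap3-3 are more alike than those of unrelated genes was not tested. How the authors' counting divided reads between the 2 copies is not known from the labels or the table, so the single values are uncertain.

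Low-level cysteine-rich genes were found in the subfamilies known in humans from the cuticle, in several subfamilies with 1 gene, and in others. Among the others, red light means were 17.9 FPKM for Krtap9-5, 42.2 for Krtap31-2 and 143 for Krtap31-1. Krtap28-10 and Krtap28-13 had 112 and 116 FPKM. Subfamily 5, on chromosome 7 (GRCm38.p6), had 5 genes with red light means from 2.03 to 94.8 FPKM; Krtap5-5 was the highest, at 0.187 in untreated skin. Krtap5-3 was listed at 0 in untreated skin and has no ratio, and Krtap5-2 had 0.0533 and 14.5 FPKM. The genes of subfamilies 10 and 12, on chromosome 10, lay between 98.3 and 112 FPKM after red light, with Krtap10-10 at 0.193 and 112 FPKM and Krtap12-1 at 0.203 and 99.5 FPKM. Krtap10-10 and Krtap10-4 are 92.8% identical in protein, so reads may be split between them and their single values may be uncertain. How alike their transcripts are was not measured. In subfamilies 5, 10 and 12, Krtap5-2 at 272-fold and Krtap10-4 at 331-fold lay below the family median of 390-fold. The other genes with a ratio lay above it: Krtap5-1 at 428-fold, Krtap12-1 at 490-fold, Krtap5-5 at 508-fold, Krtap10-10 at 577-fold and Krtap5-4 at 608-fold. All of these subfamilies' genes had untreated means under 1 FPKM, where the cysteine-rich median was 488-fold. Krtap5-1, Krtap5-2 and Krtap10-4 lay below that median.

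Krtap24-1, whose ratio of 879-fold was the largest that could be formed, was at 0.0867 FPKM in untreated skin. All values in the table are means that 3 numbers with 2 decimals can give, so a mean may carry a rounding error of up to 0.005 FPKM. For Krtap24-1 that error alone allows ratios from 831-fold to 933-fold, for Krtap9-5 (673-fold) from 567-fold to 829-fold, and for Krtap29-1, at 0.0267 and 12.2 FPKM (458-fold), from 385-fold to 563-fold. Krtap24-1 thus stays above the other genes with a ratio on rounding alone; Krtap19-4, the next, reaches 808-fold and Krtap9-5 829-fold. Krtap27-1 had 0.0433 and 15.9 FPKM. Krtap17-1, with 35.8% cysteine and 34.9% glycine plus tyrosine, had the lowest ratio of the class after Krtap3-2, 186-fold from 2.23 to 413 FPKM. The remaining leading genes of their subfamilies were Krtap11-1 (3.99 and 1300 FPKM), Krtap13-1 (0.967 and 585 FPKM), Krtap26-1 (0.730 and 357 FPKM), Krtap31-1 (0.333 and 143 FPKM) and Krtap28-13 (0.477 and 116 FPKM).

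**Figure D4:**
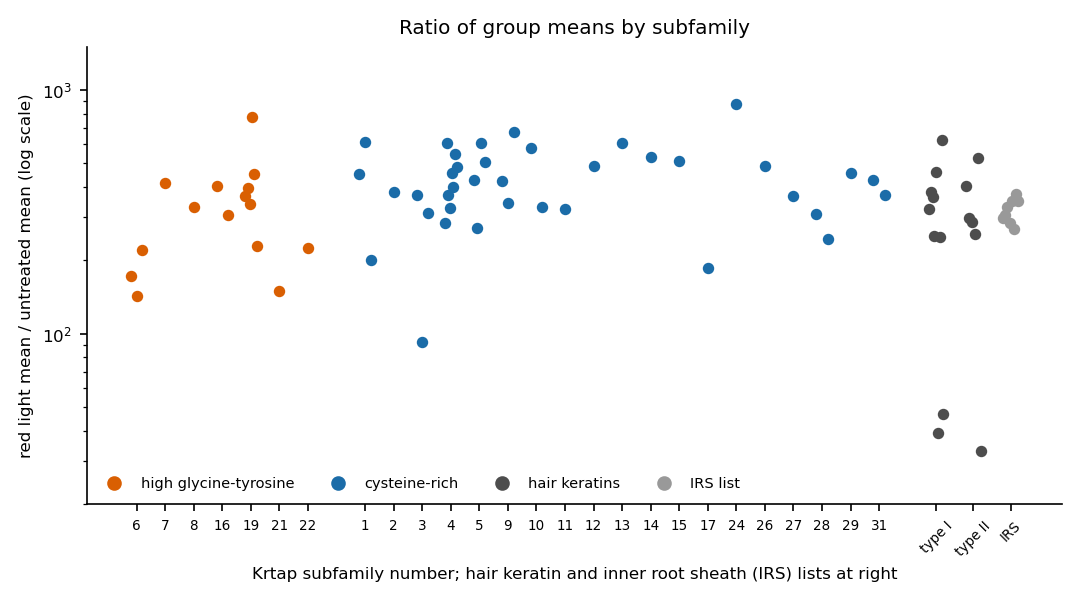
Ratio of the red light mean to the untreated mean (y axis, log scale) for each Krtap gene by subfamily number, with the hair keratin and inner root sheath lists at the right. Krtap5-3, listed at 0 in untreated skin, has no point. Subfamilies 6, 21 and 22 lie between 143-fold and 225-fold, and Krtap3-2 is the lowest Krtap point at 92.2-fold.

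By subfamily, the signal was concentrated in both groups. Subfamilies 4, 7, 3 and 8 held 49.4% of the summed Krtap FPKM after red light. The same subfamilies had the highest sums in untreated skin, where subfamilies 7 and 8 held 9.59% and 11.4%. In untreated skin subfamily 3 came first with 17.0% and subfamily 4 held 10.6%, and after red light they held 12.0% and 12.9%. Subfamily 6 held 9.42% in untreated and 5.499% in red light skin, subfamily 15 4.11% and 6.61%, and subfamily 14 2.21% and 3.71%. The 3 lowest subfamilies (24, 27 and 29) were the same in both groups.

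**Figure D5:**
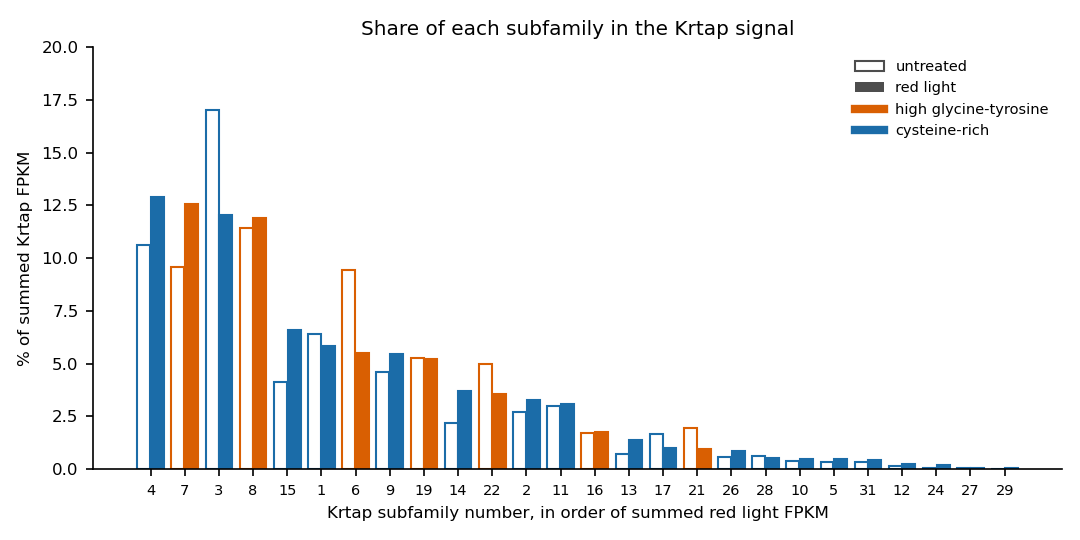
Share of each subfamily in the summed Krtap FPKM (y axis, %) in untreated (open bars) and red light skin (filled bars), ordered by the red light sum. Subfamily 3 goes from 17.0% to 12.0% of the signal and subfamily 15 goes from 4.11% to 6.61%.

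The hair keratins, whose filaments these proteins embed, had median ratios of the same order but a wider spread downwards. All 9 type I hair keratins were listed and higher, with a median of 326-fold, led by Krt33a (4.24 and 1383 FPKM) and Krt34 (3.59 and 1366 FPKM). Of 7 type II hair keratins 6 were listed, all higher, with a median of 293-fold, led by Krt86 (3.09 and 1246 FPKM) and Krt81 (3.84 and 1147 FPKM). Krt84 at 33.2-fold, Krt32 at 39.1-fold and Krt36 at 46.7-fold, named after their values were seen, lay below every Krtap gene. Per summed hair keratin FPKM, the Krtap sum stood at 4.01 in untreated skin and 4.55 after red light. That relation was 2.23 and 2.67 for the cysteine-rich class and 1.78 and 1.89 for the high glycine-tyrosine class. The inner root sheath, the layer that moulds the shaft, had 8 of 9 list genes listed, all higher (median 318-fold), with Krt71 at 14.9 and 4460 FPKM and Krt27 at 10.1 and 3103 FPKM.

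By their medians, the genes listed as regulators and enzymes of shaft formation differed less. All 11 listed of 13 shaft regulators were higher, beside 38.7% of all rows, with a median of 6.16-fold. Hoxc13 and Foxn1, transcription factors without which mice form no proper hair shafts, went from 0.967 to 61.8 FPKM and from 0.8 to 45.1 FPKM; both were chosen after their values were seen. The list's highest red light means belonged to Dlx3 (4.92 and 171 FPKM) and Cux1 (27.4 and 92.9 FPKM). Of the enzyme and cystine supply list 5 of 6 listed genes were higher, beside the same 38.7% of all rows, with a median of 11.6-fold. Padi3, an enzyme that converts arginine residues of hair proteins to citrulline, had means of 0.963 and 236 FPKM, a ratio of 245-fold. Its relative Padi1 had 0.310 and 63.6 FPKM, or 205-fold. Both ratios lay within the range of the Krtap genes. The ratios of the other 4 were smaller, at 15.3-fold for Tgm3, 8.87-fold for Slc7a11 and 2.08-fold for Tgm1. Sulf1, whose part in shaft formation was not examined, was lower, at 8.95 and 3.45 FPKM.

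Markers of other cells in the skin stood in the same table, in which 38.7% of all rows were higher and 61.3% lower. The 6 hair matrix markers were all higher (summed 6.94 and 174 FPKM), as were the 4 melanocyte markers (8.66 and 143 FPKM). Msx2, Hoxc13 and Lef1 stand in both the hair matrix and the shaft regulator lists, so the counts of these lists are not separate observations. Of the hair matrix sum after red light, Msx2 gave 64.4 and Hoxc13 61.8 FPKM. The 5 skeletal muscle markers were all lower, from a summed 9738 to 1737 FPKM, and so were 4 of 4 T cell, 3 of 3 macrophage, 3 of 3 nerve and both listed sebocyte markers. Of 6 epidermal markers 4 were listed, at a summed 2773 and 813 FPKM, 3 of them lower, and of 5 fibroblast markers 4 were listed, 3 with higher means (summed 724 and 1185 FPKM), among them Col3a1, which the authors' table labels as lower. None of the 4 adipocyte markers was listed. No listed marker was at 0 in either group. The part of these changes in the Krtap values was not tested. In whole skin, more cells making a transcript and more RNA per cell cannot be told apart.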

How the data were processed

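Per the labels' protocols, polyadenylated RNA was selected from total RNA of dorsal skin and made into libraries with a NEBNext Ultra RNA kit. Tools listed in the submitters' processing notes are DESeq2 1.40.2, Bowtie2 2.2.8, R 4.3.1 and RSEM; what each was used for is not said. The genome build, the annotation and the filter on rows are not given in the sources used here. The deposited table holds group means in FPKM that the authors computed, per the file headers, with a label of direction; no counts, p-values or single library values were used. Read depth is unknown, so no interval or detection floor is given. The table has 0 unused value columns.

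Ratios divide the red light mean by the untreated mean with nothing added; a gene at 0 in untreated skin ranks above all others in medians and has no ratio. With 1 value per group no test was run. A gene was counted as higher by its means, which for all 54 Krtap rows gives the same direction as the authors' label. Of the 54 symbols, 53 were found in RefSeq (GRCm38.p6) and 54 in GENCODE M21. Proteins were translated from the longest complete GENCODE M21 coding sequence, in place of the RefSeq proteins planned, and aligned globally (BLOSUM62); identity is identical residues over the longer length, and at least 90% was called near-identical (5 pairs). Promoter letters come from RefSeq (GRCm38.p6). Genes given in full were, per class, the highest and lowest red light means, the largest and smallest ratios, rows at 0 and the leading gene of each subfamily. The members and lists were chosen with earlier results of these data known. The summaries were tested on simulated data. Python 3.11.15, numpy 2.4.6, pandas 2.3.3, scipy 1.17.1, Biopython 1.88 and matplotlib 3.10.9 were used. Alternatives were pseudocounts, minimum levels, classes by protein composition, merged near-identical genes and left-out rows.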

Additional observations from a re-analysis of the deposited data

How the results depend on the processing

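A pseudocount of 1 FPKM, which shrinks the ratios of genes with low untreated means, moved the median log2 ratio from 8.74 to 7.63 in the cysteine-rich and from 8.37 to 7.46 in the high glycine-tyrosine class. It moved 30 of 53 single ratios by over 1.5-fold, and a pseudocount of 0.1 moved 12; a pseudocount cannot change a direction. The counts of higher genes, medians and sums moved by less than 1.5-fold under the other alternatives run for them: classes by protein composition (8 genes change class), merged near-identical genes, the authors' label, leaving out rows at 0, leaving out the highest row of each class and, chosen after seeing the data, a minimum of 0.5 FPKM in untreated skin. A minimum of 1 FPKM and a log2 ratio of at least 2 could remove no Krtap gene and so tested nothing. With classes by composition the order of the class sums turned, to 68.6 and 22603 FPKM for the high glycine-tyrosine against 63.9 and 19403 FPKM for the cysteine-rich class. The high glycine-tyrosine median stayed below the cysteine-rich one where medians were run, with a difference of −0.37 on the log2 scale as reported, −0.12 with classes by composition and −0.77 with the minimum in untreated skin. The sense-strand TATA window was also chosen after seeing the data. Replicates could not be left out, since only means per group were used. No paired analysis was possible because the result comes from no test and from means alone. Without a known depth, counting error is uncertain, most of all for the 26 Krtap genes under 1 FPKM in untreated skin.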

Other observations

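The Krtap clusters hold further listed rows under other symbols, looked up by neighbourhood in RefSeq (GRCm38.p6) after the Krtap values were seen. Between the outermost Krtap genes of chromosomes 7, 10, 11 and 16, RefSeq places 83 genes not named Krtap, of which 35 were listed. All 35 had higher means after red light, against 38.7% of all rows, with a median ratio of 498-fold. Their means summed to 35.9 FPKM in untreated and 11817 FPKM in red light skin, beside 132 and 42006 FPKM for the Krtap rows. Most carry predicted-gene symbols. On chromosome 16, Gm10229 was at 7.99 and 2205 FPKM and Gm10228 at 6.24 and 1150 FPKM, levels that would place both among the highest Krtap genes. On chromosome 11, Gm11562 was at 3.14 and 1128 FPKM and Gm11938 at 1.99 and 894 FPKM. The lowest ratio among the neighbours was the 13.1-fold of 2310079G19Rik, from 0.123 to 1.61 FPKM, and 3 rows were at 0 in untreated skin. Whether these rows encode keratin-associated proteins was not tested. RefSeq gives Krtap12-4 as a synonym of a further row, Gm10272.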
